A study of Mus musculus with 12 samples.

Results

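The 7 subunits of respiratory complex I that mitochondrial DNA encodes were examined in the ventricles of mice carrying human phospholamban. The genes are mt-Nd1, mt-Nd2, mt-Nd3, mt-Nd4, mt-Nd4l, mt-Nd5 and mt-Nd6. Gm28438, a nuclear copy of mt-Nd3, was added to them. The 8 genes were taken by symbol from the 33641 genes listed, and all 8 passed the filter on low values. Phospholamban (PLN) is the small membrane protein that restrains the calcium pump of the sarcoplasmic reticulum. In every animal the mouse PLN coding sequence had been replaced at exon 2 by a human one. Controls carried the human wild type (WT) sequence. Mutants were heterozygous, with a human allele lacking arginine 14 (R14del) beside a human WT allele. The lines came from chimeras of mixed strain that were bred to Sox2-Cre mice, in which Cre acts in the early embryo and so in all tissues, and GEO lists the strain as C57BL/6J. Total RNA came from left ventricle (LV) and right ventricle (RV) of mice aged 12 to 14 weeks, with 3 samples each of WT LV, WT RV, R14del LV and R14del RV. The values are TPM, a unit of transcript abundance. They are scaled by gene length and sum to the same total in each sample, but sequencing depth is unknown. Levels can be compared between genes only as far as reads were assigned to the right gene. That is uncertain for genes that share bases or have near-identical copies. In samples of whole ventricle, fewer cells of a type and less RNA per cell cannot be told apart.

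Complex I is the entry point of the respiratory chain. It takes electrons from NADH, passes them to ubiquinone and pumps protons across the inner mitochondrial membrane. The mitochondrial subunits all sit in its membrane arm. ND2, ND4 and ND5 are the antiporter-like proton-pumping subunits, ND1 lines the ubiquinone site together with nuclear-encoded subunits, and ND3, ND4L and ND6 lie between them. The peripheral arm and the supernumerary subunits are encoded in the nucleus. Heart muscle is packed with mitochondria, and messenger RNAs (mRNAs) of mitochondrial DNA are among the most abundant transcripts of a ventricle. Both strands of mitochondrial DNA are transcribed as long precursors that are cut into mRNAs, so that neighbouring genes start from shared transcripts.

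In the mouse genome (GRCm38, GENCODE M21 annotation) mt-Nd1 lies at chrM:2751-3707, mt-Nd2 at chrM:3914-4951, mt-Nd3 at chrM:9459-9806, mt-Nd4l at chrM:9877-10173, mt-Nd4 at chrM:10167-11544 and mt-Nd5 at chrM:11742-13565, all on the plus strand. mt-Nd6 lies at chrM:13552-14070 on the minus strand and is the only one of the 7 on that strand. Each is a protein-coding gene of 1 exon. RefSeq gives the same bounds for all 7. Gm28438 lies at chr1:24612775-24613119 on the minus strand and is annotated as an unprocessed pseudogene. Its 345 bases were aligned with mt-Nd3 without gaps, and 344 of them were identical. The single difference was T3C, with positions counted from the first base of mt-Nd3 and the mt-Nd3 base given first. After it came 342 identical bases, and mt-Nd3 ran 3 bases further. The first 60 bases of each (mt-Nd3 at chrM:9459-9518, plus strand; Gm28438 at chr1:24613060-24613119, minus strand) are shown because a read that does not reach the base in capitals, or the last 3 bases, cannot be assigned to one gene rather than the other.
mt-Nd3: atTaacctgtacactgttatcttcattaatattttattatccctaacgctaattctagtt
Gm28438: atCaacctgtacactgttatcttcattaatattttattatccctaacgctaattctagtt

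Other copies were sought by aligning the 8 transcripts to all GENCODE M21 transcripts. Gm10222 matched 294 of the 297 bases of mt-Nd4l and Gm28439 matched 876 bases of mt-Nd4, both without a mismatch. They lie next to Gm28438, at chr1:24612407-24612700 and chr1:24611535-24612410. Both were listed at 0 TPM in all 12 samples. Gm13339 was 96.7% identical to 510 bases of mt-Nd2 and was listed at 0.273 to 2.18 TPM, and Gm4076 was 95.2% identical to 954 bases of mt-Nd5 and was listed at no more than 0.151 TPM. No copy with at least 95% identity over at least 80% of the shorter transcript was found for mt-Nd1 or mt-Nd6. Gm28438 was thus the one near-identical copy of a complex I gene that was listed at a high level.

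Neighbouring members also shared bases with each other. The end of mt-Nd4l and the start of mt-Nd4 share 7 bases on 1 strand, and both are carried on a single mRNA. The ends of mt-Nd5 and mt-Nd6 share 14 bases on opposite strands, so a count without strand cannot tell these genes apart at least over that stretch. Without strand, a transcript that runs past the end of its gene would also be counted for the gene opposite. The study describes a stranded poly(A) library preparation, but whether the TPM values were counted by strand is not given in the sources used here. The sequences are shown with the shared bases in capitals, from GENCODE M21 (the last 40 bases of mt-Nd4l at chrM:10134-10173, the first 40 of mt-Nd4 at chrM:10167-10206, the last 40 of mt-Nd5 at chrM:13526-13565, and the last 40 of mt-Nd6 at chrM:13552-13591, minus strand).
mt-Nd4l: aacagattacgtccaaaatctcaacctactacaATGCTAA
mt-Nd4: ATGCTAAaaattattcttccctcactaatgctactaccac
mt-Nd5: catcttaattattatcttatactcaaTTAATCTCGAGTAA
mt-Nd6: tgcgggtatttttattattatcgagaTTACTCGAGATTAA

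The libraries had the makeup of ventricle. Myl2, the regulatory light chain of ventricular myosin, was listed at 10599 to 16486 TPM, and Tnnt2, cardiac troponin T, at 5936 to 8540 TPM. The 13 mitochondrial mRNAs, which were the only mt- genes listed, held 37.3% to 54.5% of all TPM. A list of 6 nuclear copies of mitochondrial genes, Gm28438 among them, held 105041 to 150617 TPM. These copies were counted with the genes outside the mitochondrial genome. Gm28437 was highest in R14del LV replicate 3, at 33108 TPM. Gm29216 was 42.7 TPM in R14del RV replicate 2 and 39899 to 49403 TPM in the other libraries. How reads were divided between mitochondrial genes and these copies was not tested. Some libraries stood apart. R14del LV replicate 3 had the lowest mitochondrial share. R14del RV replicate 2 had the highest mt-Nd4l, and the highest correlation it reached with any other library (0.978, log scale, across genes) was the lowest among the 12. In the WT samples numbered 1, of LV and RV, 4 Y-linked genes were listed at 0.0159 to 0.191 TPM, against 3.03 to 30.6 TPM in the other 10 libraries, although the study describes male mice. Values that moved most when these samples were left out are given both ways beside the result.

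The 7 mitochondrial complex I mRNAs were among the 26 genes with the highest mean TPM, and together they made up 14.5% to 19.7% of all TPM in a sample. mt-Nd4l was the highest, with a mean of 39880 ± 7761 TPM (SD, n = 12), and mt-Nd1 followed with 33793 ± 2255 TPM. Then came mt-Nd4 with 29759 ± 3117 TPM, mt-Nd2 with 24435 ± 2356 TPM, mt-Nd6 with 22498 ± 2517 TPM and mt-Nd5 with 15358 ± 1849 TPM. mt-Nd3 was listed the lowest, at 4026 ± 655 TPM. Gm28438 was listed at 12815 ± 1893 TPM, above mt-Nd3 in 12 of 12 samples. Both levels depend on how reads were divided between these near-identical genes, which was not tested. Together the pair held 11859 to 19302 TPM in a sample. The order was the same from sample to sample at most steps. Each gene was above the next in 12 of 12 samples, except that mt-Nd2 was above mt-Nd6 in 9 of 12 and mt-Nd5 was above Gm28438 in 11 of 12. The highest sample exceeded the lowest by 1.26-fold for mt-Nd1, the least variable member, and by 1.87-fold for mt-Nd4l, the most variable.

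**Figure D1:**
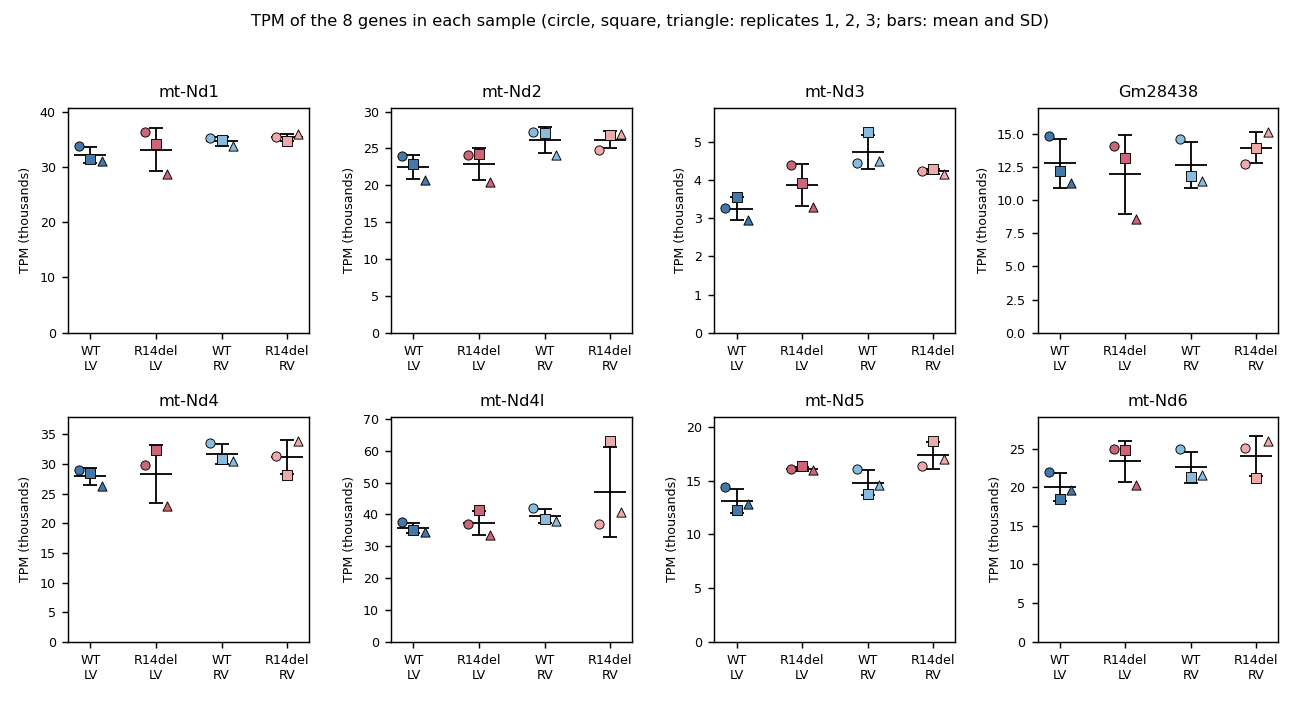
TPM of the 8 genes (vertical axes, from 0) in the 12 samples, by genotype and ventricle; circles, squares and triangles are replicates 1, 2 and 3, and bars are the mean and SD of 3 samples. mt-Nd5 lies higher in all R14del samples than in the WT samples of the same ventricle, and mt-Nd4l of R14del RV replicate 2 stands alone at 63065 TPM.

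The comparison of R14del with WT asked whether the PLN deletion was accompanied by other levels of these mRNAs in either ventricle. A gene was called when its adjusted p was at most 0.05 and its fold change at least 1.5 in limma with Benjamini-Hochberg adjustment over 12526 genes. No member was called in LV (0 of 8), where 0.519% of all genes tested were called, and none in RV (0 of 8), where 0.271% were. At an unadjusted p under 0.05 there was 1 member in LV and none in RV, beside 9.60% and 6.22% of all genes. The median log2 fold change of the 8 was 0.05 in LV and 0.06 in RV, and that of all genes was -0.09 and -0.00. The ranges of the 2 genotypes overlapped for 7 of the 8 genes in LV (the exception was mt-Nd5) and for 6 of the 8 in RV (the exceptions were mt-Nd5, higher in R14del, and mt-Nd3, lower in R14del). The sum of the 7 mt-Nd genes was 10357 TPM higher in R14del than in WT in LV and 11058 TPM higher in RV, with overlap in both. Without R14del LV replicate 3 and R14del RV replicate 2 these differences were 20231 and 5189 TPM, and without the WT samples numbered 1 they were 15016 and 15823 TPM.

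mt-Nd5, a proton-pumping subunit at the far end of the membrane arm, was the member with the smallest p in both ventricles. It was listed at 14406, 12240 and 12793 TPM in WT LV and at 16050, 16327 and 15965 TPM in R14del LV. In RV it was 16125, 13748 and 14605 TPM in WT and 16329, 18701 and 17011 TPM in R14del. The R14del samples were above all WT samples of the same ventricle, without overlap, although WT RV replicate 1 came close to the lowest R14del RV sample. Such a separation in either direction was seen in 11.0% of all genes in LV and 11.0% in RV, and in the higher direction in 2.48% and 5.19%. In the lower direction, that of mt-Nd3 in RV, it was seen in 5.79%. Neither difference passed the test in limma. The log2 fold change was 0.30 ± 0.11 (SE) with an adjusted p of 0.398 for LV, and 0.23 ± 0.11 with an adjusted p of 0.857 for RV. Its 95% interval reached from 1.04-fold to 1.46-fold in LV and from 0.987-fold to 1.39-fold in RV. Without R14del LV replicate 3 and R14del RV replicate 2 the log2 fold changes were 0.30 and 0.17, and without the WT samples numbered 1 they were 0.36 and 0.29. Under quantile normalization the RV value was 0.

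mt-Nd5 was next expressed as a share of the summed mitochondrial TPM and as a ratio to mt-Nd4. Both rest on the mt-Nd5 values already picked by their p, so neither is independent of the difference in TPM. mt-Nd4 itself had a log2 fold change of R14del over WT of 0.01 in LV and -0.03 in RV. The share was 3.09%, 2.59% and 2.90% in WT LV and 3.13%, 3.24% and 4.28% in R14del LV. In RV it was 3.06%, 2.68% and 3.00% in WT and 3.18%, 3.66% and 3.12% in R14del. The groups did not overlap in either ventricle. The mean difference was 0.692 percentage points in LV and 0.405 points in RV, each with an exact two-sided permutation p of 0.1, the smallest that 3 against 3 samples allow. The difference leaned on the libraries that stood apart, and without R14del LV replicate 3 and R14del RV replicate 2 it was 0.327 points in LV and 0.234 points in RV, still without overlap. Set against its neighbour mt-Nd4, mt-Nd5 gave a ratio of 0.430 to 0.496 in WT LV and 0.505 to 0.697 in R14del LV, and of 0.446 to 0.480 in WT RV and 0.502 to 0.663 in R14del RV. The ratio was higher in every R14del sample than in every WT sample of the same ventricle (exact permutation p = 0.1 in each). Its mean difference was 0.109 in LV and 0.0937 in RV. It too leaned on the 2 libraries, and without them it was 0.0508 in LV and 0.0432 in RV, still without overlap.

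mt-Nd6, the subunit encoded on the other strand, separated the genotypes in LV by its share but not by its TPM. The share was 4.71%, 3.90% and 4.45% in WT LV and 4.86%, 4.93% and 5.43% in R14del LV, without overlap (difference 0.718 points, exact permutation p = 0.1). In TPM the groups overlapped, with 18462 to 21977 TPM in WT LV and 20233 to 24895 TPM in R14del LV (log2 fold change 0.22 ± 0.13, limma, adjusted p = 0.662). In RV the share was 4.16% to 4.72% in WT and 4.14% to 4.87% in R14del, which overlapped. A difference between the ventricles in this respect was not shown (exact permutation of the ventricle labels within each genotype, p = 0.2). Without R14del LV replicate 3 and R14del RV replicate 2 the share differences were 0.542 points in LV and 0.380 points in RV, and neither overlapped. Without the WT samples numbered 1 they were 0.897 and 0.296 points, and RV overlapped. Whether reads of the plus strand were counted for mt-Nd6 is not known.

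**Figure D2:**
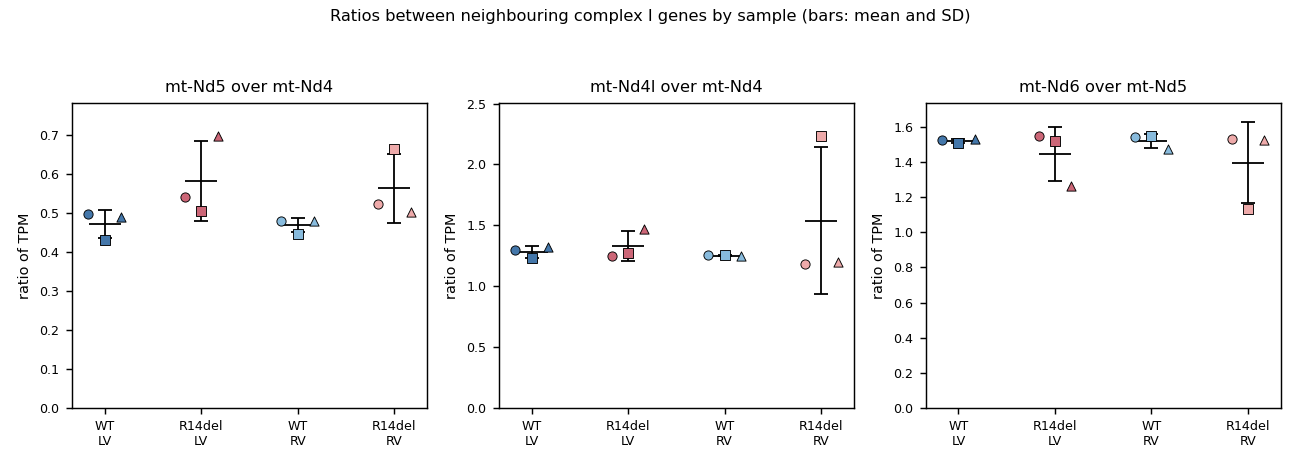
Ratios of the TPM of neighbouring complex I genes (vertical axes, from 0) in the 12 samples; symbols are replicates 1, 2 and 3, and bars are the mean and SD of 3 samples. mt-Nd5 over mt-Nd4 is higher in all R14del samples than in the WT samples of the same ventricle, while the other 2 ratios are nearly constant outside R14del LV replicate 3 and R14del RV replicate 2.

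The other neighbour ratios were almost fixed in most libraries. mt-Nd4l over mt-Nd4, which share an mRNA, was 1.18 to 1.32 in 10 libraries, 1.47 in R14del LV replicate 3 and 2.24 in R14del RV replicate 2. mt-Nd6 over mt-Nd5, which overlap at their ends, was 1.48 to 1.55 in the same 10 libraries, 1.27 in R14del LV replicate 3 and 1.13 in R14del RV replicate 2. In WT the SD of this ratio was 0.0122 in LV and 0.0399 in RV (n = 3 each), against means of 1.52 and 1.52. The 2 libraries that departed were the same for both ratios, and mt-Nd4l itself was 34602 to 42100 TPM in the 10 others, 33647 TPM in R14del LV replicate 3 and 63065 TPM in R14del RV replicate 2. What set these 2 libraries apart was not tested.

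The comparison of RV with LV asked how far the 2 ventricles of the same genotype differ. Again no member was called in WT (0 of 8), in R14del (0 of 8) or in the average over both genotypes (0 of 8). The share of all genes called was 0%, 0% and 0.263%. Of all genes, 14.5%, 6.57% and 21.5% had an unadjusted p under 0.05 in limma, and of the members 1, 0 and 2 did. All 8 members had a positive log2 fold change in the average, from 0.11 for mt-Nd1 to 0.34 for mt-Nd3, with a median of 0.15, while the median of all genes tested was -0.12. TPM sum to a fixed total, of which mitochondrial mRNAs held more in RV. Scaled to the summed TPM of genes outside the mitochondrial genome, the median of all genes moved by 0.12 to -0.00 and that of the members to 0.30, and all 8 stayed positive. They were also all positive in the average under upper quartile scaling and under quantile normalization, with medians of 0.30 and 0.06.

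The sum of the 7 mt-Nd genes showed the size of this difference. It was 163928, 152076 and 147824 TPM in WT LV and 183710, 171842 and 166990 TPM in WT RV. In R14del it was 172643, 177037 and 145219 TPM in LV and 174097, 196976 and 184643 TPM in RV. RV was above LV without overlap in WT, and the R14del groups overlapped. The mean difference was 19571 TPM in WT and 20272 TPM in R14del. Without R14del LV replicate 3 and R14del RV replicate 2, the R14del difference came down to 4530 TPM, and the average over genotypes from 19922 to 12051 TPM. Of the 6 other mitochondrial mRNAs none was called, 5 had an averaged log2 fold change above 0, and their median was 0.06. Their values ran from -0.11 for mt-Co2 to 0.67 ± 0.26 for mt-Atp8 (limma, adjusted p = 0.165), which exceeded every complex I gene. RV lay above LV for mt-Atp8 without overlap in both genotypes, and R14del LV replicate 3 was its lowest sample at 18804 TPM. The 13 mitochondrial mRNAs as a whole held 46.0% ± 1.72 of all TPM in WT LV, 50.9% ± 2.05 in WT RV, 46.3% ± 7.80 in R14del LV and 52.4% ± 1.90 in R14del RV (SD, n = 3 each). RV minus LV was 4.89 points in WT, without overlap, and 6.06 points in R14del, with overlap. Without R14del LV replicate 3 and R14del RV replicate 2 the R14del difference was 2.19 points. R14del minus WT in LV then went from 0.296 to 4.80 points.

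Within the mitochondrial mRNAs, the share of complex I varied less. The 7 genes made up 33.6% ± 1.5 of mitochondrial TPM in WT LV, 34.2% ± 0.648 in WT RV, 35.9% ± 2.70 in R14del LV and 35.4% ± 2.71 in R14del RV. The groups overlapped in all 4 comparisons. The 2 highest shares were 38.9% in R14del LV replicate 3 and 38.5% in R14del RV replicate 2, and the other 10 samples lay between 32.1% and 35.1%. The RV share minus the LV share averaged 0.0444 points over the genotypes. R14del minus WT was 2.31 points in LV and 1.20 points in RV. Without those 2 libraries it was 0.809 points in LV and -0.367 points in RV.

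**Figure D3:**
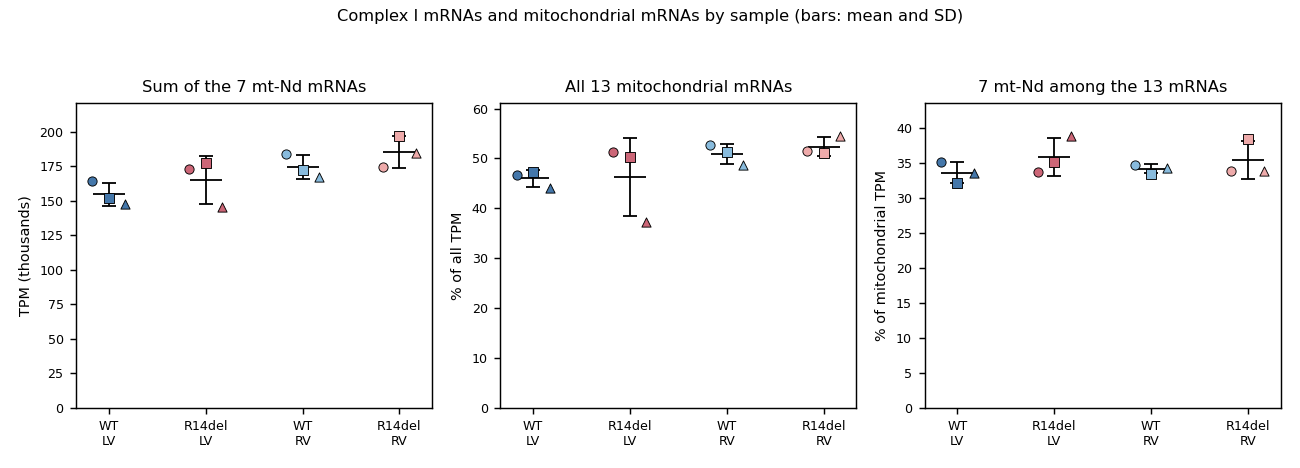
Sum of the 7 mt-Nd mRNAs (TPM), all 13 mitochondrial mRNAs (percent of all TPM) and the 7 among the 13 (percent of mitochondrial TPM), with vertical axes from 0; symbols are replicates 1, 2 and 3, and bars are the mean and SD of 3 samples. In the first 2 panels RV lies above LV without overlap in WT, while the R14del groups overlap. The third is level at 32.1% to 35.1% except in R14del LV replicate 3 and R14del RV replicate 2.

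mt-Nd2, a proton-pumping subunit, was above its LV level in every RV sample of both genotypes. It was 23932, 22828 and 20652 TPM in WT LV and 27241, 27143 and 24082 TPM in WT RV, and 24082, 24274 and 20394 TPM in R14del LV and 24842, 26787 and 26968 TPM in R14del RV. The gap between the nearest samples of WT was small. The averaged log2 fold change was 0.21 ± 0.08 (limma, adjusted p = 0.184). The ranges of RV and LV did not overlap for 26.1% of all genes in WT and 9.98% in R14del. RV lay above LV in 0.974% of all genes in WT and 1.26% in R14del, and among the members this held for mt-Nd2, mt-Nd3, mt-Nd4 and mt-Nd4l in WT and for mt-Nd2 and mt-Nd5 in R14del. Apart from mt-Nd3, the log2 fold changes of these members were 0.10 to 0.22, with adjusted p from 0.388 to 0.963 in limma. The R14del values went from 0.20 to 0.10 for mt-Nd2 and from 0.10 to 0.04 for mt-Nd5 when R14del LV replicate 3 and R14del RV replicate 2 were left out. The percentages of all genes come from TPM, which sum to a fixed total, of which mitochondrial mRNAs held more in RV. The median log2 fold change of all genes was -0.17 in WT and -0.08 in R14del. As shares of mitochondrial TPM, mt-Nd2, mt-Nd4 and mt-Nd4l overlapped between the ventricles in WT, and mt-Nd2 and mt-Nd5 in R14del. Only mt-Nd3 in WT stayed without overlap.

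mt-Nd3, a small subunit at the joint of the 2 arms, had the largest ventricle difference among the members in WT and in the average. In R14del the value of mt-Nd4l, 0.29, was the largest. That value leaned on R14del RV replicate 2, as mt-Nd4l was 37126, 41226 and 33647 TPM in R14del LV and 36929, 63065 and 40741 TPM in R14del RV. mt-Nd3 was 3259, 3553 and 2953 TPM in WT LV and 4462, 5265 and 4498 TPM in WT RV. In R14del mt-Nd3 was 4392, 3934 and 3297 TPM in LV and 4235, 4298 and 4166 TPM in RV. The WT ventricles were well apart and the R14del ventricles overlapped. The log2 fold change of RV over LV was 0.54 ± 0.13 in WT (limma, adjusted p = 0.204), with a 95% interval from 1.20-fold to 1.77-fold, and 0.14 ± 0.13 in R14del (adjusted p = 0.952). Averaged over genotypes it was 0.34 ± 0.09 (adjusted p = 0.0783). The difference between the genotypes was -0.40 ± 0.18 (interaction in limma, adjusted p = 1.00). mt-Nd3 was the 1 member with an unadjusted p under 0.05 there, beside 1.01% of all genes, and none of the genes tested was called (0%). Without R14del LV replicate 3 and R14del RV replicate 2 the adjusted p in WT was 0.0529, and without the WT samples numbered 1 it was 0.375.

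**Figure D4:**
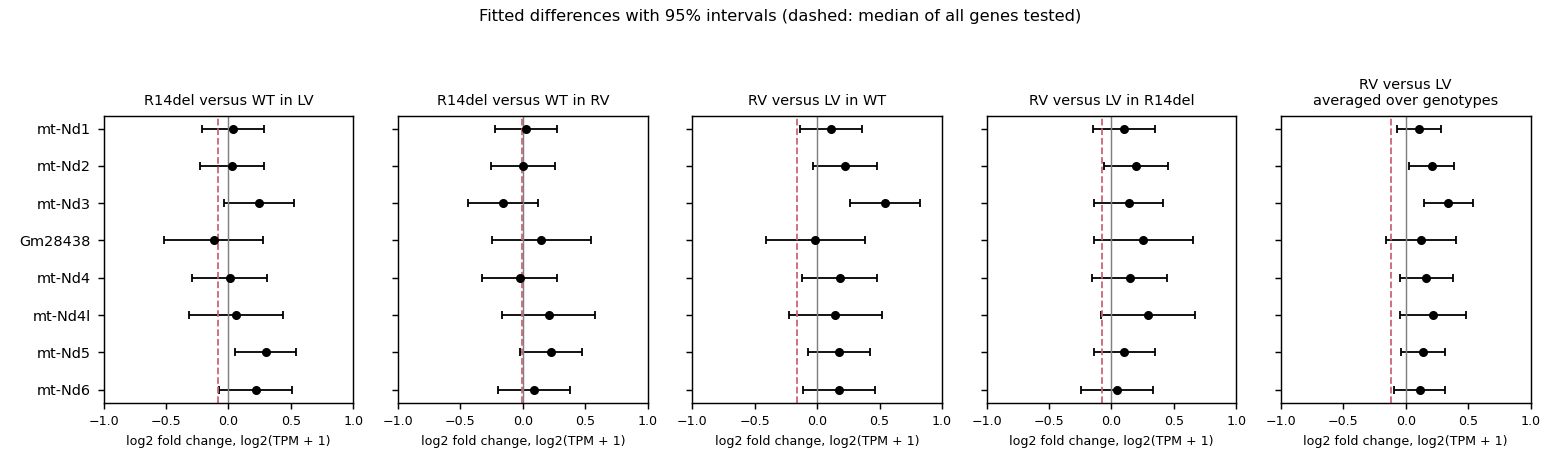
Log2 fold change of the 8 genes on the log2(TPM + 1) scale (horizontal axes) for R14del over WT in each ventricle and RV over LV in each genotype and averaged; points are limma estimates, bars 95% intervals and dashed lines the median of all genes tested. Intervals exclude 0 for mt-Nd5 in R14del against WT in LV, for mt-Nd3 in RV against LV of WT, and for mt-Nd2 and mt-Nd3 in the average, without adjustment for the number of genes.

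The nuclear copy of mt-Nd3 showed no ventricle difference of this size in WT. Gm28438 was 14813, 12208 and 11254 TPM in WT LV and 14605, 11803 and 11452 TPM in WT RV, and 14100, 13144 and 8562 TPM in R14del LV and 12756, 13950 and 15137 TPM in R14del RV. All 4 comparisons overlapped, with log2 fold changes from -0.12 to 0.25 (limma, adjusted p from 0.893 to 1.00). Of the TPM of the pair, Gm28438 held 82.0%, 77.5% and 79.2% in WT LV and 76.6%, 69.2% and 71.8% in WT RV. In R14del it held 76.2%, 77.0% and 72.2% in LV and 75.1%, 76.4% and 78.4% in RV. WT LV lay above WT RV and above R14del LV without overlap (exact permutation p = 0.1 for each), while the other 2 comparisons overlapped.

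Since reads of the 2 genes are hard to tell apart, the pair was also added up. mt-Nd3 alone held 0.699%, 0.751% and 0.670% of mitochondrial TPM in WT LV, 0.846%, 1.03% and 0.924% in WT RV, 0.858%, 0.781% and 0.884% in R14del LV and 0.824%, 0.841% and 0.764% in R14del RV. It was higher in R14del than in WT in LV and lower in RV, both without overlap (differences of 0.134 and -0.123 points, exact permutation p = 0.1 for each). The sum of mt-Nd3 and Gm28438 held 3.48% ± 0.348 in WT LV, 3.41% ± 0.182 in WT RV, 3.39% ± 0.216 in R14del LV and 3.47% ± 0.145 in R14del RV (SD, n = 3 each), and the groups overlapped in all 4 comparisons. mt-Nd3 is the smaller part of this sum, and its genotype differences were smaller than the SDs of the sum, so the overlap does not show whether mt-Nd3 differed. In TPM the sum was 16013 ± 1945 in WT LV, 17362 ± 1579 in WT RV, 15810 ± 3494 in R14del LV and 18181 ± 1157 in R14del RV. From LV to RV of WT the mean of mt-Nd3 went from 3255 to 4741 TPM and that of Gm28438 from 12758 to 12620 TPM. As shares of mitochondrial TPM, mt-Nd3 went from 0.707% to 0.932% and Gm28438 from 2.77% to 2.47%, the latter with overlap. R14del minus WT in the share of Gm28438 was -0.218 points in LV and 0.187 points in RV, with overlap in both. How reads were divided between the 2 genes was not tested.

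**Figure D5:**
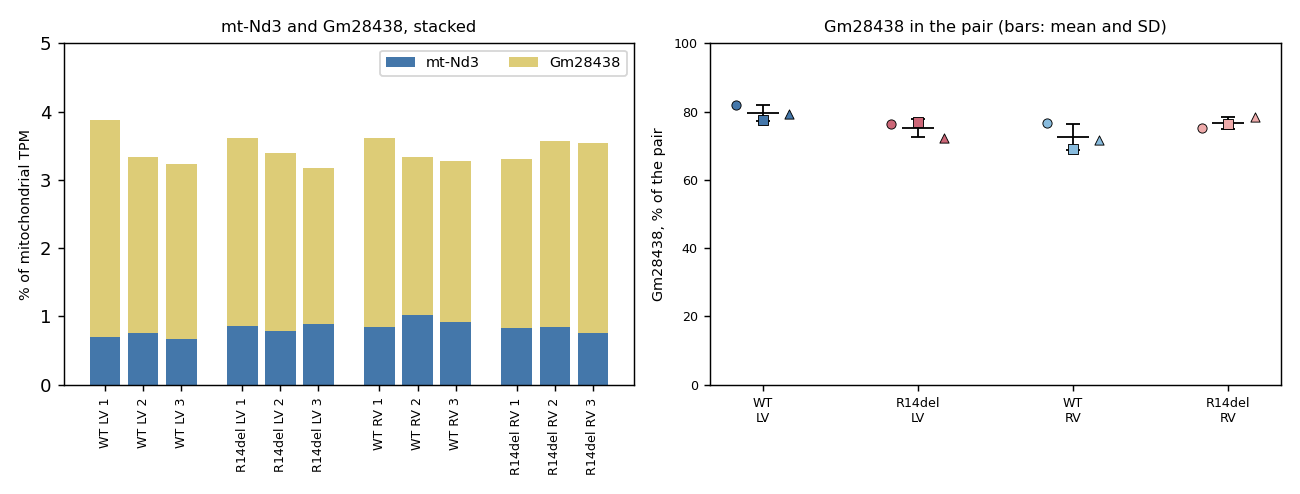
Left, mt-Nd3 and its nuclear copy Gm28438 stacked, in percent of mitochondrial TPM, for each of the 12 samples; right, Gm28438 as a percent of the pair by group, with replicates 1, 2 and 3 as circle, square and triangle and bars for the mean and SD of 3 samples. The height of the stack is 3.18% to 3.87%, and Gm28438 holds 69.2% to 82.0% of it, more in WT LV than in WT RV.

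Over the 12 samples with group means removed, the members did not all vary together on the log2(TPM + 1) scale. Pearson's r was 0.73 to 0.92 between each pair of mt-Nd1, mt-Nd2, mt-Nd4 and Gm28438, and mt-Nd6 followed mt-Nd4 with 0.84. mt-Nd4l and mt-Nd5 followed each other with 0.66 and mt-Nd1 with 0.19 and 0.22. These values share the libraries that stood apart and the fixed total of TPM. The genes most like each member, by the same measure, included Cep295 for mt-Nd1, mt-Nd2, mt-Nd3 and Gm28438, with r of 0.91, 0.82, 0.84 and 0.83. Cep295, a centriole protein gene with a mean of 19.1 TPM, holds a stretch in its annotated transcript that aligned in the opposite orientation with 427 bases of mt-Nd1, at 76.1% identity, and another with 553 bases of mt-Nd2, at 74.1%. It was singled out after these values were seen. mt-Nd1 and Gm28438 were most like each other (0.92), mt-Nd2 was most like St6galnac3 (0.89) and mt-Nd3 like 3830403N18Rik (0.84), both with a mean under 1.5 TPM. mt-Nd4 was most like mt-Atp6 (0.95), a gene of the ATP synthase on the same strand, mt-Nd4l was most like Zfp942 (0.93), mt-Nd5 like Sap30 (0.94) and mt-Nd6 like Gm15526 (0.91).

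The nuclear genes of the complex gave no called difference either. Of the 7 nuclear-encoded core subunits, 29 accessory subunits, 17 assembly factors and 32 genes of mitochondrial RNA transcription and processing that were tested, none was called in any of the 4 comparisons or in the average. In RV over LV averaged over genotypes, the log2 fold change was below 0 for all 7 core subunits (median -0.19), all 29 accessory subunits (median -0.22), all 17 assembly factors (median -0.16) and 24 of the 32 RNA genes (median -0.09), where the median of all genes was -0.12. At an unadjusted p under 0.05 there were 2, 20, 7 and 6 of them, beside 21.5% of all genes. Scaled to the summed TPM of genes outside the mitochondrial genome the medians were -0.04, -0.07, -0.02 and 0.03, against -0.00 for all genes, and 2, 4, 7 and 20 values were above 0. So on this scale the sign of the RNA genes' median turned.

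The genes with the smallest p in these lists can be named. Ndufs7, a core subunit that holds the last iron-sulphur cluster before ubiquinone, was 403 ± 16.4 TPM in WT LV, 318 ± 21.1 in WT RV, 358 ± 40.3 in R14del LV and 265 ± 34.6 in R14del RV (averaged log2 fold change of RV over LV -0.39 ± 0.09, limma, adjusted p = 0.0568). Ndufa2, an accessory subunit, was 303 ± 13, 235 ± 21.2, 283 ± 14.7 and 199 ± 34.8 TPM in the same order (-0.45 ± 0.09, limma, adjusted p = 0.0513). Ndufaf8, an assembly factor, was 36.1 ± 2.02, 26.2 ± 3.91, 32.4 ± 1.74 and 20.6 ± 5.02 TPM, and its log2 fold change of -0.55 ± 0.11 had an adjusted p of 0.0497 in limma but stayed under the 1.5-fold limit. Slirp, an RNA-binding protein that stabilises mitochondrial mRNAs, was 40.1 ± 1.97, 27.8 ± 3.43, 38.8 ± 7.67 and 32.2 ± 4.31 TPM (-0.38 ± 0.11, limma, adjusted p = 0.0893). In WT alone its log2 fold change of RV over LV was -0.52 ± 0.15 (limma, adjusted p = 0.241).

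Between genotypes no gene of the nuclear lists was called. In R14del over WT the medians of the 4 lists ran from -0.09 to -0.01 in LV, where that of all genes was -0.09, and from -0.10 to 0.03 in RV, where that of all genes was -0.00. The RV values were -0.10 for the core subunits, with 1 of 7 above 0, and -0.09 for the accessory subunits, with 5 of 29 above 0. The smallest p among the RNA genes belonged in LV to Mterf3, a repressor of mitochondrial transcription, with 20.9 ± 3.40 TPM in WT and 15.7 ± 1.48 TPM in R14del (log2 fold change -0.38 ± 0.15, limma, adjusted p = 0.398). In RV it belonged to Mterf2, a mitochondrial DNA-binding protein of the same family, with 14.1 ± 2.09 TPM in WT and 19.3 ± 1.42 TPM in R14del (0.43 ± 0.14, adjusted p = 0.476). Neither passed the test.

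Marker levels of other cell types are given beside these differences. The summed TPM of 7 endothelial markers was 595 to 629 in WT LV and 444 to 481 in WT RV, and 534 to 761 in R14del LV and 486 to 614 in R14del RV. Of these markers all 7 had an averaged log2 fold change of RV over LV below 0, 6 with an unadjusted p under 0.05 in limma, and none was called. Their median was -0.36, beside -0.12 and 21.5% for all genes. The sum of 10 cardiomyocyte markers was 50928 to 55523 TPM in WT LV and 45802 to 49029 TPM in WT RV, and 46298 to 64459 and 42888 to 54791 TPM in R14del. Their averaged median log2 fold change of RV over LV was -0.09, with 5 of 10 above 0, where that of all genes was -0.12. Scaled to the summed TPM of genes outside the mitochondrial genome, it was 0.07. The sum of 9 blood and immune markers was 2111 to 2319 TPM in WT LV, 1472 to 1743 in WT RV, 1103 to 2151 in R14del LV and 970 to 1374 in R14del RV. Atrial markers were low or uneven, with Myl7, the atrial myosin light chain, at 0.190 to 320 TPM and Sln, sarcolipin, at 0 to 36.9 TPM. None of the atrial, fibroblast, smooth muscle and fat markers was called in any comparison. In R14del over WT of LV their median log2 fold changes were -2.30, -0.36, -0.20 and -0.68, and that of blood and immune markers was -0.62. The median of all genes there was -0.09. In RV the medians were 0.03, -0.11, 0.16, 0.35 and -0.23 in the same order. Summed atrial markers were 1319 TPM in WT LV replicate 3, 881 TPM in WT RV replicate 2 and 45.9 to 527 TPM in the other libraries. The part of these cell types in the differences of the complex I genes was not tested.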

How the data were processed

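RNA of 12 mouse ventricle samples had been sequenced from libraries made with the Illumina TruSeq RNA Sample Prep Kit, and the study describes the preparation as stranded and poly(A). The authors deposited 1 table per sample with a TPM value for each of 33641 genes. The study names CLC Genomics Workbench and the GRCm38 genome, and the program, annotation and strand setting behind these TPM values are not given in the sources used here. The values summed to the same total in each, mitochondrial rRNA was not among the genes listed, and 1 library, R14del RV replicate 3, came from another sequencing run than the other 11, per the file headers.

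Groups were taken from the tissue and genotype labels. Genes whose mean over the samples reached 0.5 TPM (12526) were tested as log2(TPM + 1) in limma 3.58.1 (R 4.3.3), with 4 group means, a trended empirical Bayes variance (8 residual degrees of freedom, prior 5.154) and Benjamini-Hochberg adjustment. Fold changes on this scale understate those of low genes. The fit was tested on simulated data. Shares were compared by exact two-sided permutation of the samples (20 divisions for 3 against 3, 400 within genotypes), with no p for sums over the 7 genes and no adjustment over the 8. Transcripts were aligned with BLAST 2.17.0. Python 3.11.15 did the rest. Alternatives were other filters, pseudocounts and scalings, a replicate block, and samples left out.

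Same-numbered LV and RV samples deviated together in WT (r = 0.6575, 0.321 and 0.4567 over genes) and less evenly in R14del (0.389, 0.2295 and 0.0542). The main limma fit and the permutations did not pair samples in either genotype. Blocks by number, and by genotype and number, were run as alternatives. The study gives 3 mice for the RNA data of each group, but the labels tie no sample to an animal, and p-values measure the spread between these samples. The members and gene lists were chosen with earlier results of these data known. Named genes were the 8 members, the 3 genes most like each by correlation, of which the leading ones are given, and from each nuclear list the genes called or else that of smallest p.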

Additional observations from a re-analysis of the deposited data

Results flagged for a closer look

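The genotype difference in the share of mt-Nd3 had opposite signs in the 2 ventricles. R14del minus WT was 0.134 percentage points of mitochondrial TPM in LV and -0.123 points in RV, and every R14del sample lay above every WT sample in LV and below every WT sample in RV. The RV difference less the LV difference was -0.257 points (exact permutation of the ventricle labels within each genotype, 400 divisions, p = 0.02, the only p under 0.05 among the 8 shares tested, without adjustment). It was -0.251 points without R14del LV replicate 3 and R14del RV replicate 2 (exact p = 0.0333), -0.296 points without the WT samples numbered 1 (exact p = 0.0667) and -0.300 to -0.209 points without any 1 sample. On the log2(TPM + 1) scale the same interaction had an adjusted p of 1.00 in limma. The permutations assume that the ventricles do not differ in either genotype, whereas the mt-Nd3 shares of the WT ventricles did not overlap. Their p therefore does not test the interaction alone.

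The share of Gm28438 in the pair differed in the reverse direction. R14del minus WT was -4.41 points in LV and 4.13 points in RV, a difference of 8.54 points (exact permutation, p = 0.04). It was 7.17 points without R14del LV replicate 3 and R14del RV replicate 2 (exact p = 0.1) and 9.37 points without the WT samples numbered 1 (exact p = 0.0833). The leave-one-out values were 6.85 to 10.6 points, and the exact p exceeded 0.05 without 8 of the 12 samples taken singly. Both values rest on mt-Nd3 and so are not independent of each other, and how reads were divided between the 2 genes was not tested. The limit of the permutations holds for both.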

How the results depend on the processing

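No member was called under any alternative run in any comparison, the 2 replicate blocks included, and mt-Nd5 in R14del over WT, mt-Nd3 in RV over LV of WT, and mt-Nd2 and mt-Nd3 in the averaged comparison kept their sign, except that mt-Nd5 in RV was 0 under quantile normalization. Their adjusted p ranged over the alternatives from 0.139 to 0.880 (mt-Nd5, LV), 0.503 to 1 (mt-Nd5, RV), 0.0529 to 0.723 (mt-Nd3, WT), 0.0586 to 0.221 (mt-Nd3, averaged) and 0.131 to 0.611 (mt-Nd2, averaged) in limma. Gm28438 in R14del over WT of LV was above 0 under upper quartile scaling. The number of genes called among all tested did change. For R14del against WT in LV (main 65) it was 22 without a filter, 104 under quantile normalization, 99 under upper quartile scaling, 119 with the replicate number as a block and 230 without the WT samples numbered 1. In RV (main 34) it was 17, 85, 88, 62 and 88 in the same order, and 73 scaled to nuclear genes. For RV against LV averaged (main 33) it was 6 without a filter, 18 scaled to nuclear genes, 82 without the fold limit, 58 with the number block, 95 with genotype and number as a block and 2 without the WT samples numbered 1. For RV against LV in WT (main 0) it was 1 without a filter, 2 scaled to nuclear genes, 1 with these groups alone, 12 with genotype and number as a block, 2 without the WT samples numbered 1 and 2 without R14del LV 3 and R14del RV 2, an alternative chosen after seeing the data. No other call changed with a block. Leaving out 1 sample at a time gave 19 to 153 genes in LV (153 without WT LV 1, and 19, 27, 21 and 21 without R14del LV 1, R14del LV 2, WT LV 2 and WT LV 3), 14 to 48 in RV (14, 17 and 20 without WT RV 2, WT RV 3 and R14del RV 3), 0 to 80 in the averaged comparison (0 without R14del RV 3 or WT LV 3, 80 without R14del RV 2), 0 to 3 in WT, 0 to 1 in R14del and 0 to 2 for the interaction. The cause was not tested.

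The complex I share in RV minus LV of R14del was -0.514 points, and 1.60 points with Gm28438 in the sum and the nuclear copies in the denominator. R14del minus WT in RV was -0.367 points without R14del LV 3 and R14del RV 2. Leaving out 1 sample gave 0.809 to 3.42 points for R14del minus WT in LV, -0.367 to 1.98 in RV, -0.133 to 1.37 for RV minus LV in WT, -2.08 to 0.990 in R14del and -0.737 to 0.796 in the average. Denominators restricted to the 13 mRNAs or without mitochondrial rRNA equalled the main one. TPM keep no depth, so counting error could not be given.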
